A study of Rattus norvegicus with 4 samples.

Results

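The genes described here encode the enzymes and carriers of glycolysis, lactate and pyruvate handling, the tricarboxylic acid (TCA) cycle and the malate-aspartate and glycerol phosphate shuttles, chosen by gene name from a list of 49. Of these, 44 were found among the 15172 genes of the table, 43 by exact name and 1, Idh3b, in the spelling Idh3B. All 44 were among the 13953 genes with enough counts to be tested. Hk1, Hk2, Gapdh, Ldha and Ogdh were not analysed here.

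The study asked how silencing of Tbk1, which encodes TANK-binding kinase 1, an innate immune kinase, changes the transcriptome of insulin-secreting cells. INS-1 832/13 cells, a clonal rat insulinoma line used as a model of the β-cell, were transfected with a pool of siRNAs against Tbk1 (siTbk1) or with a non-targeting siRNA (siScramble) for 36 h. All cells shared the same growth medium, which contained serum and sodium pyruvate, and poly(A) RNA was sequenced with a stranded library kit. Each group held 2 samples, numbered 2 and 3 in the labels, and nothing in the labels says whether they came from separate cultures, so that the spread between them may be technical. Because the line is tumour-derived and clonal, these values describe that line and not islets. An siTbk1 pool lowers a transcript without deleting the gene, and no second siRNA or rescue was analysed here.

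In glycolysis, glucose is phosphorylated, split and oxidised to pyruvate, with phosphofructokinase as the main committed step. Pyruvate is then reduced to lactate, oxidised to acetyl-CoA by the pyruvate dehydrogenase complex inside mitochondria, or carboxylated to oxaloacetate by pyruvate carboxylase. The β-cell is known for feeding nearly all glucose carbon into mitochondria, with strong anaplerosis through pyruvate carboxylase and low lactate dehydrogenase A and monocarboxylate transporter 1, 2 genes that are among those termed disallowed in this cell type.

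Tbk1 itself read 53.7 and 52.5 counts per 1000000 counts (CPM) in the siScramble samples and 11.8 and 13.3 CPM in the siTbk1 samples, here and below in the order replicate 2, replicate 3. This is a log2 fold change of −2.08 ± 0.076 (standard error, n = 2 per group, adjusted p = 3.7e-08), the direction expected of an siRNA. The sample labels read Scramble-transfected and TBK1-transfected and do not themselves name an siRNA, which the treatment protocol does. The adjusted p-values are those of the quasi-likelihood test in edgeR with Benjamini-Hochberg correction over all genes tested, and a gene is said to have risen or fallen where this value was below 0.05. Total counts were between 38428926 and 47759013 per sample, so that 3 counts, the limit that a count of 0 allows, corresponded to 0.0628 to 0.0781 CPM. Of 12 β-cell markers, all were in the table, and their summed level was 19145 and 20014 CPM in siScramble and 16494 and 14858 CPM in siTbk1 cells. Ins1 made up 10384 and 11092 CPM of that sum in siScramble and 7520 and 6244 CPM in siTbk1 cells. The markers moved in both directions, with 6 of the 12 lower and 3, Iapp (log2 fold change 0.38), Pcsk1 (0.27) and Nkx6-1 (0.23), higher. Of 5 α-cell markers 2 were present, with Gcg at 1389 and 1313 CPM in siScramble and 815 and 878 CPM in siTbk1 cells. Markers of the other pancreatic and stromal cells were few, with 1 of 3 δ- and PP-cell, 1 of 8 acinar and ductal and 2 of 10 fibroblast, endothelial and immune markers in the table, the last set at 8.72 and 9.64 CPM in siScramble and 3.1 and 3.42 CPM in siTbk1 cells, mostly Kdr. The part of these shifts in the values that follow was not tested, and fewer cells of a type cannot be told apart from less RNA per cell.

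Depletion of Tbk1 was accompanied by lower mRNA of most glycolytic enzymes, lower Ldhb, higher carriers and carboxylase at the entry of pyruvate into mitochondria, and a mixed pattern in the TCA cycle. Of the 44 genes, 9 rose and 15 fell, while 20 did not pass the test. The share that rose was 20.5%, against 24.4% of all genes tested, and the share that fell was 34.1%, against 24.8% of all genes. With the additional requirement of a fold change of at least 1.5, 1 gene, Idh1, was higher (2.27%, against 4.81% of all genes) and 3 genes, Pfkl, Aldoa and Ldhb, were lower (6.82%, against 6.18% of all genes). The share of lower genes past that limit was thus close to the background and that of higher genes below it, at counts of 3 and 1. When 1 sample was left out, the lower genes past the limit numbered 2 to 5 of the 44. The background count itself moved, from 862 lower genes to 574 without siScramble replicate 3 and to 1159 without siTbk1 replicate 2. Both siTbk1 values lay above both siScramble values for 13 genes (29.5%, against 38.7% of all genes) and below them for 25 genes (56.8%, against 37.9% of all genes), and the groups overlapped for 6. The median log2 fold change of the 44 genes was −0.072, that of all genes tested 0.0071. For 15 of the 44 genes some reads had been divided between genes, as counts that are not whole numbers show, and their values depend on that division. The share over all genes of the table was 25.8%.

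**Figure D1:**
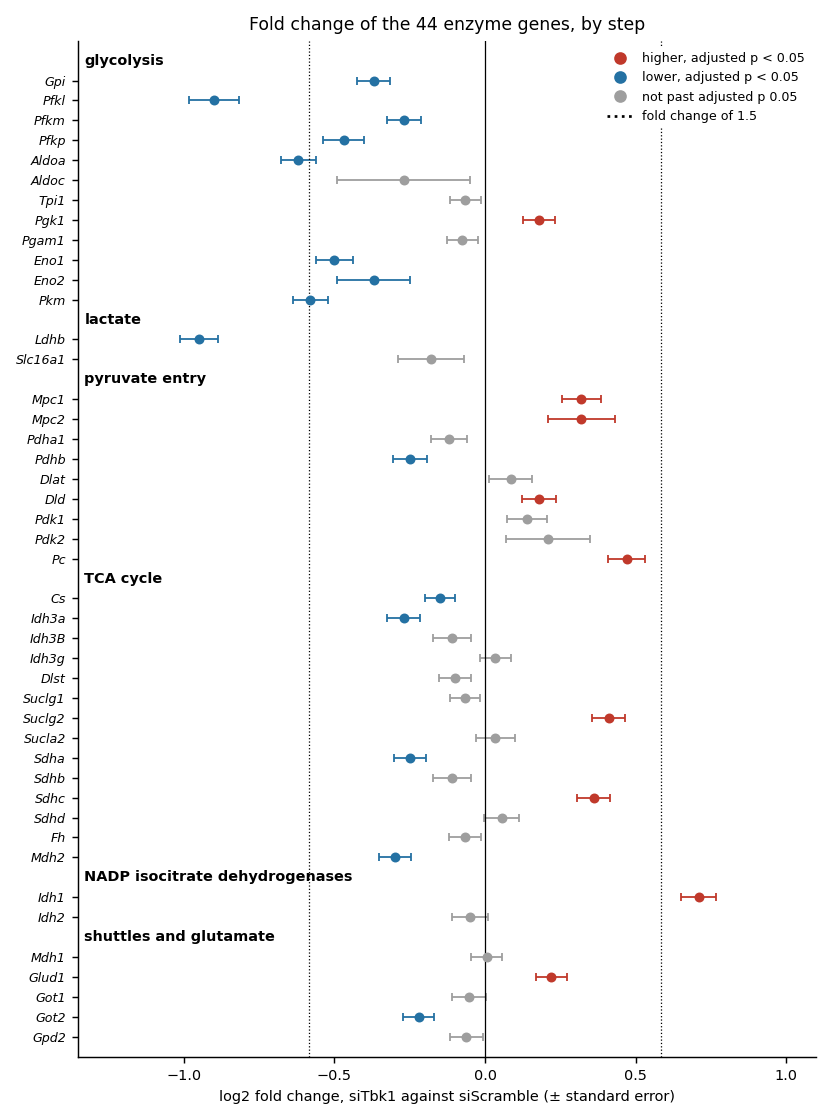
Log2 fold change of each of the 44 genes in siTbk1 against siScramble cells (x axis, with standard error), ordered by pathway step, with colours for the direction of genes past an adjusted p of 0.05 and dotted lines at a fold change of 1.5. Of the 12 glycolytic genes 8 lie to the left in blue and 1, Pgk1, to the right in red, whereas 4 of the 9 genes of pyruvate entry lie to the right in red. Among all genes tested 24.8% were lower and 24.4% higher at that adjusted p.

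The sequences just upstream of 4 of these genes are shown because they are the genes with a fold change of at least 1.5, of which 3 were lower and 1 higher. Each is the stretch of 250 bases before the annotated start in RefSeq (build GRCr8), written 5′ to 3′ on the strand of the gene. Capitals mark GGGCGG (the GC box) and ACGTG (the core of the hypoxia response element), searched on both strands, so that CCGCCC and CACGT are the same motifs read from the other strand. CACGTG, the E-box read by carbohydrate response and Myc family factors, was searched as well and contains ACGTG. Pfkl lies at chr20:10663715-10663964 on the plus strand, Aldoa (the last of 3 annotated starts) at chr1:190836778-190837027 on the minus strand, Ldhb at chr4:177177409-177177658 on the minus strand and Idh1 at chr9:74049475-74049724 on the minus strand.
Pfkl: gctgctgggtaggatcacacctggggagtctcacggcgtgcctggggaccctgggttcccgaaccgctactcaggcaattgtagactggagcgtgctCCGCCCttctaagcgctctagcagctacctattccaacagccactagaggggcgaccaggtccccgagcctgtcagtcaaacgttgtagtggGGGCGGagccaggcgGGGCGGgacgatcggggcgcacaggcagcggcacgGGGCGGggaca
Aldoa: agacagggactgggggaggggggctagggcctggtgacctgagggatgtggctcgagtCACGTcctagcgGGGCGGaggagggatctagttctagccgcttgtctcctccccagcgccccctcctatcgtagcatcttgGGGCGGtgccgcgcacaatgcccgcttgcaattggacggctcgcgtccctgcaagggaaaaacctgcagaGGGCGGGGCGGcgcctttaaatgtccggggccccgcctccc
Ldhb: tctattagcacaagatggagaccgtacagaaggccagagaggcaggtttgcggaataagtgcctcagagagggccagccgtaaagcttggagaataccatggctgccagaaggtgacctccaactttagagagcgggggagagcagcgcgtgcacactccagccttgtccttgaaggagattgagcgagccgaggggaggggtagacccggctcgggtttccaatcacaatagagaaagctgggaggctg
Idh1: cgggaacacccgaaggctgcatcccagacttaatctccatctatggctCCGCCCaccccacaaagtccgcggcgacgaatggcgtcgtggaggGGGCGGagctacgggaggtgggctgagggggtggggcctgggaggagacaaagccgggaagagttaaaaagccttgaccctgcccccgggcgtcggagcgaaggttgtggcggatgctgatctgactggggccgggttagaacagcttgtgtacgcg
The Pfkl stretch held 4 GGGCGG matches, the Aldoa stretch 4 GGGCGG and 1 ACGTG, the Idh1 stretch 2 GGGCGG and the Ldhb stretch none of the 3 motifs. The other 2 Aldoa starts held none. Among the 41 genes with a promoter entry, 27 (65.9%) held GGGCGG, 10 (24.4%) ACGTG and 3 (7.32%) CACGTG at any of their starts. The shares among all 33469 promoters were 30.5%, 16.6% and 5.59%, counted per start. The 3 genes with CACGTG were Slc16a1, Pdhb and Pdk2. These matches describe the letters in the window only.

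The glycolytic genes moved largely in 1 direction. Of the 12 measured, 8 fell, 1 rose and 3 did not pass the test. The share that fell was 66.7%, against 24.8% of all genes, and the share that rose 8.33%, against 24.4%. Both siTbk1 values lay below both siScramble values for 11 (91.7%, against 37.9% of all genes). The median log2 fold change of the 12 genes was −0.37. Summed over these 12, the level was 4318 and 4343 CPM in siScramble and 3627 and 3509 CPM in siTbk1 cells. Without siTbk1 replicate 2 the median log2 fold change was −0.50. Between samples of equal number, which are not paired, the median log2 ratio was −0.35 for replicate 2 and −0.45 for replicate 3. Of the 12 genes 8 had reads divided between genes, against 25.8% of all genes of the table. Among those that fell these were Pfkm, Aldoa, Eno1, Eno2 and Pkm, whereas Gpi, Pfkl and Pfkp had none.

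All 3 phosphofructokinase genes fell. Pfkl, the liver-type subunit (chr20:11393877-11415883 in rn6, the build named in the submitters' notes), read 77.7 and 88.6 CPM in siScramble and 47.7 and 41.0 CPM in siTbk1 cells. The groups did not overlap, and the log2 fold change was −0.90 ± 0.082 (adjusted p = 7.9e-06). Pfkp, the platelet-type subunit (chr17:68511064-68559472), fell from 44.7 and 45.5 CPM to 34.0 and 31.2 CPM, by 0.47 ± 0.067 on the log2 scale (adjusted p = 0.00014). The muscle-type subunit Pfkm, with divided reads, showed the smallest difference of the 3, with 248 and 241 CPM in siScramble and 213 and 194 CPM in siTbk1 cells (log2 fold change −0.27 ± 0.057, adjusted p = 0.0022). Summed over the 3 genes, phosphofructokinase mRNA was 371 and 375 CPM in siScramble and 294 and 266 CPM in siTbk1 cells.

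The steps on either side of phosphofructokinase fell as well. Gpi (chr1:90063411-90091288), which encodes glucose-6-phosphate isomerase, read 537 and 544 CPM in siScramble and 435 and 400 CPM in siTbk1 cells, a log2 fold change of −0.37 ± 0.055 (adjusted p = 0.00018). Aldoa (chr1:198228387-198233589), the main aldolase outside liver and brain, read 589 and 624 CPM in siScramble and 413 and 379 CPM in siTbk1 cells. Its log2 fold change was −0.62 ± 0.058 (adjusted p = 1e-05), with no overlap between groups. This gene had divided reads and lay close to the fold change limit, which it no longer met without siScramble replicate 3 (−0.57), without siTbk1 replicate 3 (−0.55) or after removal of a trend with gene length (−0.51). Aldoc, the brain-type aldolase, was low in all samples, at 1.96 and 1.79 CPM in siScramble and 1.79 and 1.3 CPM in siTbk1 cells, and did not pass the test (adjusted p = 0.33). Tpi1, the triosephosphate isomerase that interconverts the 2 aldolase products, did not pass it either, with a log2 fold change of −0.065 ± 0.052 (adjusted p = 0.32).

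Below the triose phosphates the genes divided. Pgk1, phosphoglycerate kinase and the first ATP-yielding step, was the only glycolytic gene of the 12 that rose, from 466 and 437 CPM to 505 and 521 CPM (log2 fold change 0.18 ± 0.053, adjusted p = 0.013). It did not pass without siScramble replicate 3 (adjusted p = 0.14) or without siTbk1 replicate 3 (adjusted p = 0.075). Pgam1, the next enzyme, a mutase, read 1090 and 1105 CPM in siScramble and 1020 and 1063 CPM in siTbk1 cells and did not pass the test (adjusted p = 0.24).

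The last steps to pyruvate fell. Eno1 (chr5:167288223-167299610), which encodes enolase 1, read 528 and 538 CPM in siScramble and 399 and 352 CPM in siTbk1 cells, a log2 fold change of −0.50 ± 0.062 (adjusted p = 5.5e-05). Pkm (chr8:64481172-64502723), the muscle-type pyruvate kinase gene, read 528 and 519 CPM in siScramble and 370 and 332 CPM in siTbk1 cells, a log2 fold change of −0.58 ± 0.059 (adjusted p = 1.7e-05). In both genes every siTbk1 value was below every siScramble value, and siTbk1 replicate 3 gave the lower of the 2. When any 1 sample was left out, the log2 fold change lay between −0.61 and −0.42 for Eno1 and between −0.67 and −0.5 for Pkm. Without siTbk1 replicate 2 both lay beyond the fold change limit, Eno1 at −0.61 and Pkm at −0.67. Pkm also passed that limit when samples were scaled by library size alone (−0.62, adjusted p = 2e-05). In that fit to all samples 4 of the 44 genes were lower past the limit, against 3. Eno2, the neuronal enolase, read 12.5 and 11.1 CPM in siScramble and 8.04 and 10.4 CPM in siTbk1 cells (log2 fold change −0.37 ± 0.12, adjusted p = 0.027). The table places this row at chr9:20251521-20260506, whereas RefSeq (GRCr8) has Eno2 on chromosome 4, so which copy of the gene its reads came from is uncertain. The call rested on single samples, since the adjusted p was 0.077 without siScramble replicate 2 and 0.23 without siTbk1 replicate 2. It also missed the threshold in DESeq2 (adjusted p = 0.055) and after removal of the trend with gene length (adjusted p = 0.088). All 5 genes of these lower steps, Pgk1, Pgam1, Eno1, Eno2 and Pkm, had divided reads.

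**Figure D2:**
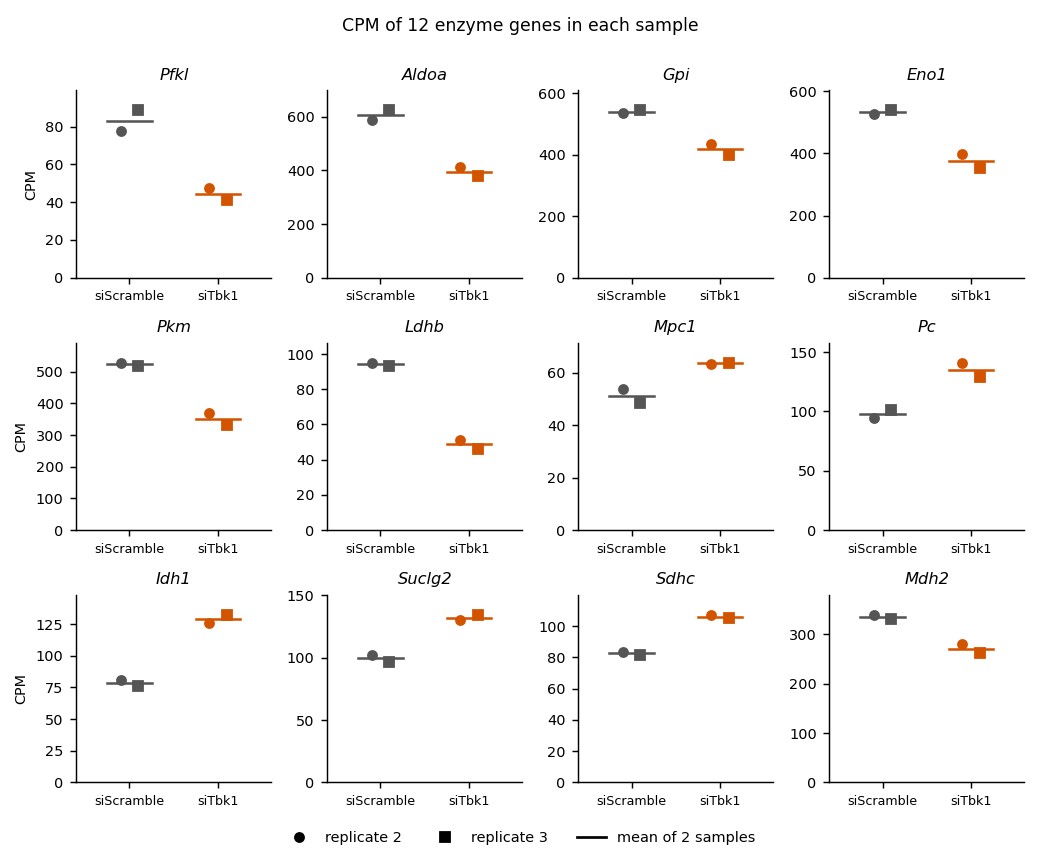
CPM (y axis, from 0) of 12 of the genes in each siScramble and siTbk1 sample, with circles for replicate 2, squares for replicate 3 and lines for the mean of the 2 samples. In every panel the samples of the groups are separate. Pfkl, Aldoa, Gpi, Eno1, Pkm, Ldhb and Mdh2 are lower and Mpc1, Pc, Idh1, Suclg2 and Sdhc higher in siTbk1 cells. All 12 are genes that passed the test, so their separation is no further evidence of a difference. Among all genes tested, both siTbk1 values lay above both siScramble values for 38.7% and below them for 37.9%.

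Among the genes of lactate handling, Ldhb (chr4:176701983-176720013) showed the largest difference of the 44 genes in the fit to all 4 samples, although without siScramble replicate 2 Pfkl exceeded it (−1.0 against −0.93). It encodes the heart-type lactate dehydrogenase subunit, which interconverts lactate and pyruvate, and read 95.0 and 93.2 CPM in siScramble and 51.3 and 46.3 CPM in siTbk1 cells. The log2 fold change was −0.95 ± 0.064 (adjusted p = 1e-06), so that its level fell by 48.1%, and it stayed between −1.03 and −0.88 when any 1 sample was left out. Slc16a1 (chr2:207108552-207128555), the monocarboxylate transporter 1 gene, read 7.72 and 7.19 CPM in siScramble and 6.53 and 6.65 CPM in siTbk1 cells. Although both siTbk1 values were the lower ones, the log2 fold change of −0.18 ± 0.11 did not pass the test (adjusted p = 0.19).

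Of the 9 genes through which pyruvate enters mitochondrial metabolism, 4 rose, 1 fell and 4 did not pass the test, with a median log2 fold change of 0.18. The share that rose was 44.4% (24.4% of all genes) and the share that fell 11.1% (24.8% of all genes), and 2 of the 4 higher genes, Mpc2 and Dld, did not pass without certain single samples. Their summed level was 508 and 492 CPM in siScramble and 541 CPM in each siTbk1 sample. None reached a fold change of 1.5.

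Both subunits of the mitochondrial pyruvate carrier rose. Mpc1 (chr1:53026608-53038230) read 53.7 and 48.6 CPM in siScramble and 63.5 and 63.8 CPM in siTbk1 cells (log2 fold change 0.32 ± 0.064, adjusted p = 0.0016), with divided reads. Mpc2 (chr13:83681322-83700214) read 5.98 and 5.76 CPM in siScramble and 7.04 and 7.60 CPM in siTbk1 cells (log2 fold change 0.32 ± 0.11, adjusted p = 0.036). The 2 subunits had similar fold changes, but the call for Mpc2 was lost without siScramble replicate 2 (adjusted p = 0.066), without siScramble replicate 3 (adjusted p = 0.13), without siTbk1 replicate 3 (adjusted p = 0.17) and in DESeq2 (adjusted p = 0.15). Pc (chr1:219759183-219859849), pyruvate carboxylase, rose from 94.5 and 101 CPM to 141 and 129 CPM. Its log2 fold change of 0.47 ± 0.062 (adjusted p = 8.8e-05) was the largest at this step, although some of its reads were divided too.

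The pyruvate dehydrogenase complex did not move as a unit. Pdhb, the β subunit of its first component, fell from 106 and 100.0 CPM to 85.0 and 88.6 CPM (log2 fold change −0.25 ± 0.057, adjusted p = 0.0033), although not after removal of the trend with gene length (adjusted p = 0.051). Pdha1, the α subunit of the same component, read 116 and 108 CPM in siScramble and 99.8 and 107 CPM in siTbk1 cells and did not pass the test (adjusted p = 0.13). Dld, the dihydrolipoamide dehydrogenase that this complex shares with 2-oxoglutarate dehydrogenase, rose from 71.0 and 67.5 CPM to 78.5 and 78.3 CPM (log2 fold change 0.18 ± 0.057, adjusted p = 0.021). It missed the threshold without siScramble replicate 3 (adjusted p = 0.15), without siTbk1 replicate 2 (adjusted p = 0.098) or without siTbk1 replicate 3 (adjusted p = 0.078). Dlat, the acetyltransferase core, and the inhibitory kinases Pdk1 and Pdk2 had log2 fold changes of 0.085, 0.14 and 0.21 and did not pass the test (adjusted p = 0.34, 0.11 and 0.22). In this complex Pdhb, Pdha1 and Dlat had divided reads, whereas Dld had none.

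In the TCA cycle proper 2 of 14 genes rose, 4 fell and 8 did not pass the test, with a median log2 fold change of −0.083. The share that rose was 14.3%, against 24.4% of all genes, and the share that fell, 28.6%, was near the 24.8% of all genes. The summed level was 1970 and 1936 CPM in siScramble and 1854 and 1848 CPM in siTbk1 cells. From citrate to 2-oxoglutarate, Cs (citrate synthase) read 254 and 252 CPM in siScramble and 230 and 226 CPM in siTbk1 cells (log2 fold change −0.15 ± 0.050, adjusted p = 0.023). The call for Cs was lost without siScramble replicate 2 (adjusted p = 0.095), without siScramble replicate 3 (adjusted p = 0.067) or without siTbk1 replicate 3 (adjusted p = 0.13). Idh3a (chr8:59164572-59183909), the catalytic subunit of NAD-dependent isocitrate dehydrogenase, fell from 111 and 109 CPM to 89.6 and 92.8 CPM (log2 fold change −0.27 ± 0.054, adjusted p = 0.0015). The other subunits of that enzyme did not pass the test, Idh3B at a log2 fold change of −0.11 (adjusted p = 0.16) and Idh3g at 0.034 (adjusted p = 0.62).

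At succinyl-CoA synthetase 1 of 3 subunits rose. Suclg2 (chr4:127552101-127824971), the GTP-forming β subunit, read 102 and 96.9 CPM in siScramble and 130 and 134 CPM in siTbk1 cells, a log2 fold change of 0.41 ± 0.055 (adjusted p = 0.00010). The ATP-forming β subunit Sucla2 read 81.9 and 75.9 CPM in siScramble and 77.6 and 84.2 CPM in siTbk1 cells, with overlap between the groups (adjusted p = 0.69). The shared α subunit Suclg1 and Dlst, the succinyltransferase of 2-oxoglutarate dehydrogenase, did not pass the test, at log2 fold changes of −0.067 and −0.099 (adjusted p = 0.30 and 0.14). Suclg2 spans the longest stretch of the 3 synthetase genes, and after removal of the trend with gene length its log2 fold change was 0.28 (adjusted p = 0.0014).

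The 4 subunits of succinate dehydrogenase, which is also complex II of the respiratory chain, went separate ways. Sdhc (chr13:89498048-89518940), a membrane anchor, rose from 83.7 and 81.3 CPM to 107 and 105 CPM (log2 fold change 0.36 ± 0.055, adjusted p = 0.00023). Sdha, the flavoprotein that holds the active site, fell from 148 and 153 CPM to 129 and 123 CPM (log2 fold change −0.25 ± 0.054, adjusted p = 0.0021). Neither the iron-sulphur subunit Sdhb nor the second anchor Sdhd passed the test, with log2 fold changes of −0.11 and 0.055 (adjusted p = 0.17 and 0.46). Fh (fumarate hydratase) did not pass it either (log2 fold change −0.067, adjusted p = 0.31). Mdh2 (chr12:23941448-23954432), the mitochondrial malate dehydrogenase that closes the cycle, fell from 339 and 331 CPM to 280 and 263 CPM, by 0.30 ± 0.053 on the log2 scale (adjusted p = 0.00061).

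Of the NADP-dependent isocitrate dehydrogenases the cytosolic one rose. Idh1 (chr9:71882105-71900045), a source of cytosolic NADPH, read 81.2 and 76.4 CPM in siScramble and 126 and 132 CPM in siTbk1 cells. The groups were far apart relative to their spread, and the log2 fold change of 0.71 ± 0.058 (adjusted p = 4e-06) corresponded to an increase of 63.4%. It stayed between 0.66 and 0.75 when any 1 sample was left out. When the test was made against a fold change of 1.5 rather than against no change, Idh1 and Aldoa did not pass, whereas Pfkl and Ldhb did. Its mitochondrial counterpart Idh2 read 153 and 149 CPM in siScramble and 153 and 139 CPM in siTbk1 cells, with overlap (adjusted p = 0.51).

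Among the shuttle and glutamate genes 1 of 5 rose and 1 fell. Both shares lay below those of all genes, of which 24.4% rose and 24.8% fell. Glud1, glutamate dehydrogenase, which passes glutamate carbon to 2-oxoglutarate, rose from 401 and 384 CPM to 454 and 461 CPM (log2 fold change 0.22 ± 0.051, adjusted p = 0.0035). Got2, the mitochondrial aspartate aminotransferase of the malate-aspartate shuttle, fell from 428 and 421 CPM to 373 and 355 CPM (log2 fold change −0.22 ± 0.051, adjusted p = 0.0035). Its cytosolic partner Got1 and the cytosolic malate dehydrogenase Mdh1 overlapped between the groups, with log2 fold changes of −0.053 and 0.0051 (adjusted p = 0.46 and 0.94). Gpd2, the mitochondrial glycerol-3-phosphate dehydrogenase, had a log2 fold change of −0.062 (adjusted p = 0.37).

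To set related enzymes against each other, the ratio of their CPM was taken within each sample, where library scaling cancels. These ratios are not corrected for transcript length, so only their change between groups can be read, and with 2 samples per group no test was made. Pfkl relative to Pfkm was 0.313 and 0.367 in siScramble and 0.224 and 0.211 in siTbk1 cells. Pc relative to Pdha1, the carboxylase against the dehydrogenase at the branch point of pyruvate, was 0.814 and 0.931 in siScramble and 1.42 and 1.20 in siTbk1 cells. Idh1 relative to Idh3a gave the widest shift of the pairs examined, from 0.735 and 0.7 to 1.4 and 1.42, a change of 0.98 on the log2 scale. Suclg2 relative to Sucla2, the GTP-forming against the ATP-forming synthetase, moved from 1.24 and 1.28 to 1.67 and 1.59. In both pairs of shuttle enzymes the mitochondrial form was lower against the cytosolic one in siTbk1 cells, Mdh2 relative to Mdh1 from 0.686 and 0.7 to 0.571 and 0.548 and Got2 relative to Got1 from 3.26 and 3.37 to 2.94 and 2.96. The ratio of Eno2 to Eno1 and that of Pdk2 to Pdk1 overlapped between the groups.

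**Figure D3:**
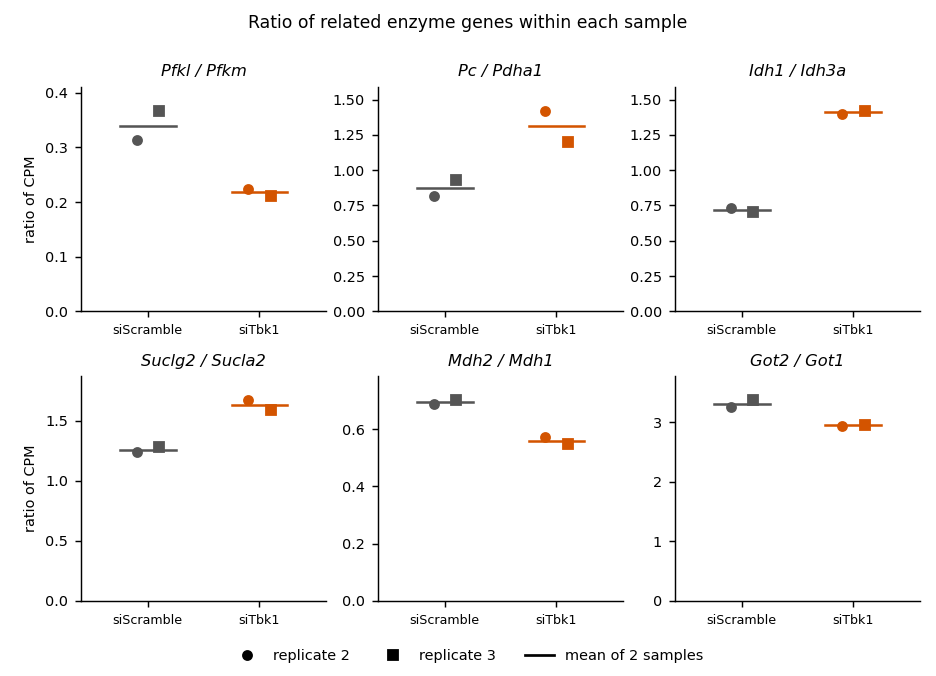
Ratio of the CPM of 2 related genes within each sample (y axis, from 0), with circles for replicate 2, squares for replicate 3 and lines for the mean of the 2 samples. The siTbk1 samples lie below the siScramble samples for Pfkl/Pfkm, Mdh2/Mdh1 and Got2/Got1 and above them for Pc/Pdha1, Idh1/Idh3a and Suclg2/Sucla2.

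Further genes of the same pathways were read from lists of their own. Among 17 other genes of glycolysis and gluconeogenesis 9 fell and 3 rose, with a median log2 fold change of −0.27. Pklr, the liver-type pyruvate kinase gene, fell from 214 and 223 CPM to 146 and 142 CPM (log2 fold change −0.60 ± 0.053, adjusted p = 6.3e-06). Thus both pyruvate kinase genes in the table, Pkm and Pklr, were lower. Pfkfb3, whose product makes the phosphofructokinase activator fructose 2,6-bisphosphate, fell from 65.6 and 65.4 CPM to 42.2 and 39.9 CPM (log2 fold change −0.67 ± 0.061, adjusted p = 7.5e-06). The genes that rose were all low in counts, namely the glucose transporter gene Slc2a3 (0.96, at most 5.27 CPM), Pfkfb1 (0.90, at most 2.09 CPM) and Fbp2 (0.51, at most 4.21 CPM). Of that list 52.9% fell and 17.6% rose, against 24.8% and 24.4% of all genes.

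Around pyruvate, 4 of 11 genes rose and 2 fell, with a median log2 fold change of 0.095 and shares of 36.4% and 18.2% against 24.4% and 24.8% of all genes. Slc16a7, monocarboxylate transporter 2, rose from 3.71 and 3.43 CPM to 6.42 and 6.09 CPM (log2 fold change 0.81 ± 0.13, adjusted p = 0.00028). Regulators of pyruvate dehydrogenase changed in both directions, since the inhibitory kinase Pdk3 (0.35) and the activating phosphatase Pdp1 (0.22) rose while the phosphatase Pdp2 (−0.55) fell. Lias, which makes the lipoate cofactor, rose by 0.25 and Bsg, the chaperone of the lactate transporters, fell by 0.16 on the log2 scale. Around the TCA cycle, malic enzymes, citrate and glutamine, 4 of 25 genes rose and 8 fell, with a median of −0.035 and none past a fold change of 1.5. These were shares of 16.0% and 32.0%, against 24.4% and 24.8% of all genes. The larger falls were those of Me3 (mitochondrial malic enzyme), Gpt2 (mitochondrial alanine aminotransferase) and Slc25a10 (dicarboxylate carrier), at −0.51 each, and of the oxoglutarate dehydrogenase-like gene Ogdhl (−0.43). The genes that rose were Dhtkd1 (0.55), which acts on 2-oxoadipate, Gpd1l (0.33), the glutamine synthetase gene Glul (0.26) and Me1, the cytosolic malic enzyme (0.23).

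The pentose phosphate pathway, which branches off at glucose 6-phosphate, showed 1 of 7 genes higher and 3 lower (median −0.10). These few genes made shares of 14.3% and 42.9%, against 24.4% and 24.8% of all genes. Rpe, the ribulose phosphate epimerase, rose from 17.2 and 14.2 CPM to 33.0 and 33.6 CPM (log2 fold change 1.08 ± 0.088, adjusted p = 4e-06). By contrast Pgls (−0.70), Tkt (−0.52) and Taldo1 (−0.31) fell, genes of lactone hydrolysis and of the transketolase and transaldolase steps. Of 20 genes known to respond to hypoxia, glycolytic ones set aside, 6 rose and 3 fell (median −0.015), shares of 30% and 15.0% against 24.4% and 24.8% of all genes. Those that rose were led by Ero1a (0.63), a thiol oxidase of the secretory pathway, the collagen prolyl hydroxylase gene P4ha1 (0.56), Hif1a itself (0.48) and Ndrg1 (0.37), and those that fell were the oxygen-sensing prolyl hydroxylase gene Egln2 (−0.71), P4ha2 (−0.30) and Vhl (−0.24), whose product marks hydroxylated Hif1a for destruction. Of 16 genes of carbohydrate response and energy sensing, 4 rose and 8 fell (median −0.19). The share that rose, 25.0%, was near the 24.4% of all genes, and the share that fell was 50.0% against 24.8%. Ppargc1a, a coactivator of mitochondrial genes, rose by 0.77, the orphan nuclear receptor gene Esrrg by 0.52, Mlx by 0.39 and Prkaa1, a catalytic subunit of AMP-activated kinase, by 0.33 on the log2 scale. The other catalytic subunit, Prkaa2, named after its value was seen, fell by 0.36. The largest falls of that list were those of Esrra (−0.62), a relative of Esrrg, the Mlx partner Mlxip (−0.56), the kinase subunit Prkab2 (−0.44) and the glucose-induced Txnip (−0.40).

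**Figure D4:**
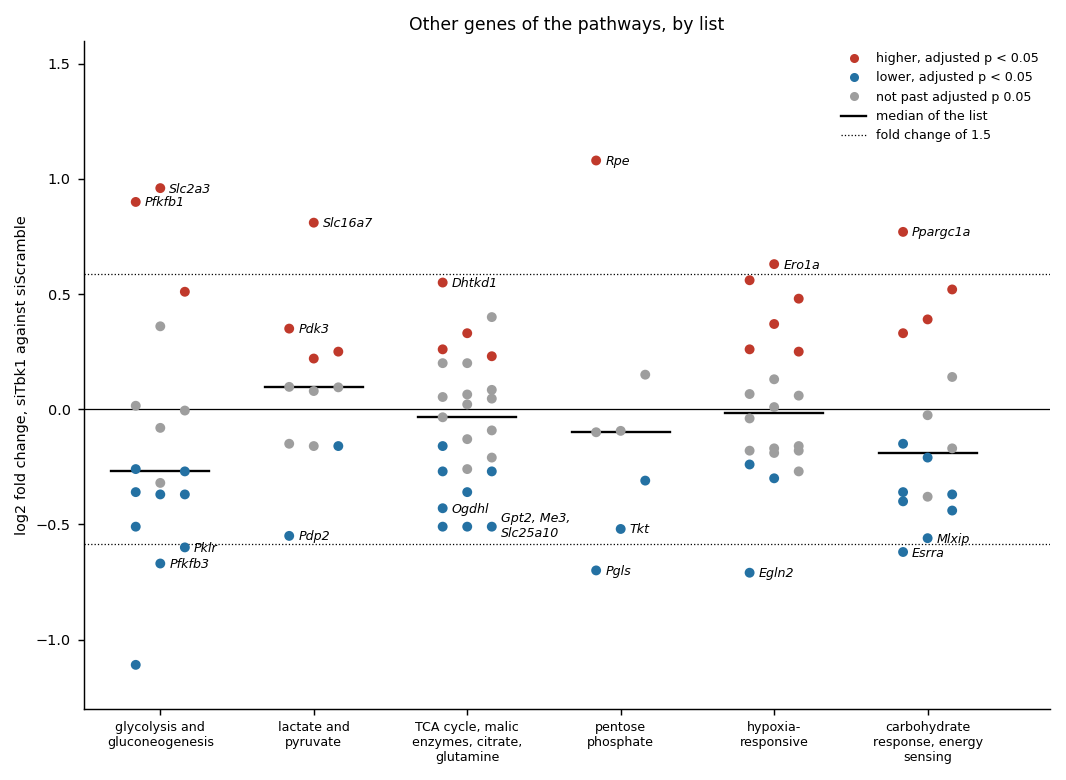
Log2 fold change in siTbk1 against siScramble cells (y axis) of the tested genes of 6 further lists (x axis), with colours for the direction of genes past an adjusted p of 0.05, a black line for the median of each list and dotted lines at a fold change of 1.5. The list of glycolysis and gluconeogenesis lies mostly below 0, with a median of −0.27, and the lists around pyruvate and hypoxia lie on both sides.

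The fold changes of the 44 genes were also set against the length of their genes. Pearson's r between log10 gene span and log2 fold change was 0.251 (Spearman's rho 0.183) over the 44 genes and 0.177 (rho 0.214) over all 13953 genes, correlations across genes that are not independent and share the same 4 libraries. The median span was 13.7 kb for the glycolytic genes, 18.9 kb for those of pyruvate entry and 22.0 kb for those of the TCA cycle. After removal of a smooth trend with length, 9 of the 44 genes rose and 14 fell, and Pfkl, Ldhb and Idh1 had log2 fold changes of −0.89, −0.92 and 0.74.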

How the data were processed

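Poly(A) RNA of 4 INS-1 832/13 samples, 2 per group, was sequenced after 36 h. The authors deposited 1 table of estimated counts per gene, with reads divided between genes in 21.08 to 22.34% of the values (further than 0.01 from a whole number). The submitters' notes name STAR 2.6.1d, Partek and rn6; settings are not given in the sources used here. The columns were matched to samples by their labels.

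Counts were rounded and filtered with filterByExpr (minimum count 10), which left 13953 of 15172 genes, scaled by TMM and tested with edgeR 4.0.16 (quasi-likelihood, Benjamini-Hochberg, all genes). CPM use TMM-scaled library sizes. Standard errors are the absolute log2 fold change divided by the square root of F. The fold change limit was 1.5. The fitting script was tested on simulated data. The members and lists were chosen with earlier results of these data known. Genes with full values were those past the fold change limit, 12 further members of largest absolute log2 fold change past the test, and Slc16a1. Other members are given by their values, more fully where they passed the test. For each list up to 4 genes per direction were named, except that some are not reported here. Pairing was checked by the correlation, across genes, between samples of equal number after subtraction of the group mean (Pearson 0.00412, Spearman −0.195 over 13953 genes), which does not tie the numbers together. DESeq2 1.42.0, limma 3.58.1, other scalings and filters, a length trend and single left-out samples were the alternatives. Promoters came from RefSeq (GRCr8), whose coordinates are not comparable with rn6. No entry was used for Pc, Pgk1 and Idh3a.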

Additional observations from a re-analysis of the deposited data

How the results depend on the processing

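Likelihood ratio, limma-voom and upper quartile fits left all 44 genes and Tbk1 on the same side of the threshold with the same sign. Tested against a fold change of 1.5, 0 members were higher and 2 lower. With library size alone the median of the 44 genes was −0.12 (median of all genes −0.04), Idh3g was −0.014 and Sucla2 −0.013, and 551 genes were higher and 1063 lower past both limits, against 671 and 862 (163 and 101 in the test against a fold change of 1.5, 495 and 738 in DESeq2). Mdh1, near 0, was −0.00077 with DESeq2 and with its size factors, −0.042 with library size alone, −0.0028 without filter and −0.00071 with at least 10 counts in every sample. With the length trend removed, Tpi1 was 0.039, Pgam1 0.017 and Sucla2 −0.047 (0.039, 0.017 and −0.046 with the replicate block as well). Leaving out 1 sample gave 2 to 5 lower members past the fold change limit, and ranges of −0.028 to 0.039 for Mdh1, −0.024 to 0.092 for Sucla2 and −0.14 to 0.018 for Idh2. Of the 15 members that fell, 9 were without divided reads and 6 had them, as had 15 of all 44 (chosen after seeing the data). The replicate block, with numbers that do not pair the samples, gave 7 higher and 14 lower members at adjusted p alone, against 9 and 15, with Dld, Mpc2 and Cs past the threshold no longer, and the crossed block 10 and 16 (chosen after seeing the data). Apart from the reversals, the causes of which were not tested, and with the test against a fold change of 1.5 set aside, calls changed for Eno2, Mpc2, Pgk1, Dld, Cs, Pdhb, Pdha1, Dlst, Pdk1, Glud1 and Gpd2. With 2 samples per group, low genes such as Aldoc, Pdk2 and Slc16a1 were measured with standard errors of 0.22, 0.14 and 0.11. Their log2 fold changes (−0.27, 0.21 and −0.18) did not pass the test, which shows neither a difference nor its absence.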
